A study of Mus musculus with 29 samples.

Results

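H3K4me1 in untreated RAW264.7 macrophage-like cells was compared with H3K4me1 after 1 h of lipopolysaccharide (LPS), place by place along chromosomes 1 to 19 and X. Overlapping peaks of the untreated and the 1 h list, by at least 1 bp, were joined into places, which gave 69188 places from 65547 untreated and 65590 LPS 1 h peaks. These are 2 of the 26 samples with a peak list among the 29 samples of the series. A place was gained if only the 1 h list had a peak there and lost if only the untreated list did. It was split if 1 untreated peak met several 1 h peaks, merged if several untreated peaks met 1, and complex if several met several. Of the places with 1 peak in each list, those at least 1.5 times as wide at 1 h were called widened, those at least 1.5 times as wide before LPS narrowed, and the rest steady. A place was called distal if it met no H3K4me3 peak of either condition.

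The study used chromatin immunoprecipitation and sequencing (ChIP-seq) in RAW264.7, a mouse macrophage line transformed by Abelson murine leukemia virus. The groups used are cells without treatment, cells given LPS at 100 ng/ml for 1 h or 4 h, cells given flavopiridol for 1 h and cells given flavopiridol for 1 h ahead of LPS for 4 h. H3K4me3, H3K27ac, H3K36me2, H3K36me3, H3K79me2 and H3K27me3 were also mapped before and after LPS, and PU.1 in untreated cells. The submitters' 27-state segmentations name a chromatin state for every stretch of the genome in 200 bp steps. There is 1 library per mark and condition, so every difference below compares 1 library with 1 other, without replicate spread and without a p-value. Values in brackets are 95% Wilson intervals, for counting error alone. The read depth is unknown, and a change in the length of a mark cannot be told apart from a change in how well it was detected.

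H3K4me1 is the monomethyl form of lysine 4 of histone H3. It is laid down at enhancers largely by the methyltransferases MLL3 and MLL4, and it also flanks promoters, whose centres carry the trimethyl form, H3K4me3. In macrophages PU.1 opens many of these enhancers during differentiation, and LPS, sensed by Toll-like receptor 4, then acts on a set that is mostly already marked. H3K27ac is found at active enhancers and promoters, H3K79me2 and H3K36me3 lie over transcribed genes, H3K36me2 covers genes and large stretches between them, and H3K27me3 is the mark of Polycomb repression.

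Most H3K4me1 was in place before and after LPS, and most of the net loss of length came from places that kept the mark. The lists shared 161.4 Mb, which is 84.0% of the untreated and 91.5% of the 1 h length. Another 30.7 Mb was in the untreated list only and 14.9 Mb in the 1 h list only, a net difference of -15.8 Mb. Places with peaks in both lists, 57415 in number, held -13.95 Mb of it, or 88.3%, whereas gained and lost places together held -1.86 Mb. The median untreated peak was 1726 bp wide and the median 1 h peak 1629 bp.

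Gained places numbered 4767, or 7.27% of the 1 h peaks, and lost places 7006, or 10.7% of the untreated peaks. Split places numbered 2947 (5.13% of the places with peaks in both lists), merged ones 939 (1.64%) and complex ones 156 (0.272%). Of the 53373 places with 1 peak in each list, 43771 were steady (82%), 3211 widened (6.02%) and 6391 narrowed (12%). Losses thus outnumbered gains, splits outnumbered merges, and narrowing outnumbered widening. With a −log10 q of 5 or more in both lists, 13642 places counted as gained and 18255 as lost, but 84.0% and 80.5% of them met a peak of the other list below that limit. The deposited q agreed poorly between the lists, as described with the marks, so values under this limit are uncertain in meaning. In length, narrowing came to -6.84 Mb, splitting to -6.70 Mb and loss to -5.09 Mb. Gain gave 3.23 Mb, widening 2.71 Mb and merging 1.40 Mb. Steady places drifted inward as well, by -4.43 Mb in all.

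**Figure D1:**
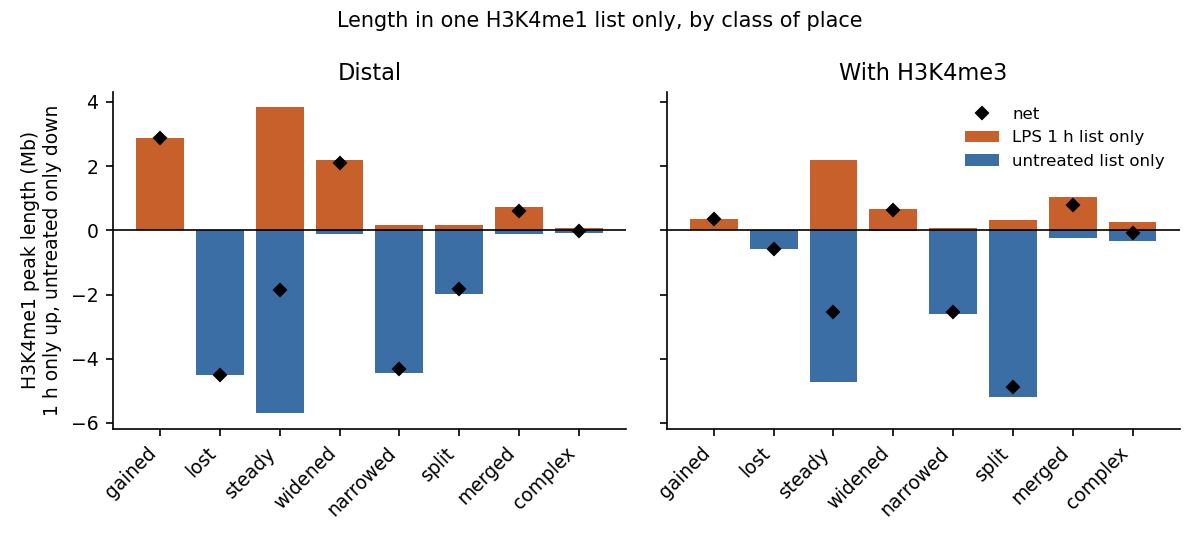
H3K4me1 peak length, in Mb, found in the LPS 1 h list only (orange, up) or the untreated list only (blue, down) for the 8 classes of place, distal on the left and with H3K4me3 on the right; diamonds are the net. Loss, narrowing and steady places hold most of the distal untreated-only length, and splitting holds 5.19 Mb of it at places with H3K4me3.

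Distal places and places with H3K4me3 lost nearly the same proportion of their length, but in different ways. Distal places went from 83.5 to 76.5 Mb, 91.7% of their untreated length, and places with H3K4me3 from 108.6 to 99.8 Mb, or 91.9%. Of the gained places 90.6% (89.7 to 91.4) were distal, and of the lost ones 90.1% (89.4 to 90.8), so appearance and disappearance of whole peaks was mostly distal in both directions. These places were narrow, and narrow peaks of any fate were mostly distal too. Under 500 bp, 4208 of 4728 untreated and 4334 of 5101 1 h peaks were distal. Among places in both lists, 37.6% had H3K4me3. The share was 37.3% of steady places, 17.9% (16.6 to 19.3) of widened, 30.1% (29.0 to 31.2) of narrowed, 58.1% (55.0 to 61.3) of merged and 71.1% (69.5 to 72.7) of split ones. Splitting came to -4.88 Mb net at places with H3K4me3 and -1.82 Mb at distal ones, and narrowing to -2.54 and -4.31 Mb. The median split place was 7801 bp wide and the median steady one 2129 bp, and a wide place can more easily reach an H3K4me3 peak. At places with H3K4me3, the bases lost, the bases gained and the bases in both lists lay under H3K4me3 to much the same extent. The shares were 24.5%, 23.0% and 25.6%, so the changed bases were neither concentrated at the H3K4me3 peaks nor kept away from them.

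Whole peaks that came or went were narrow. The median gained place was 549 bp wide and the median lost one 584 bp, where the narrowest peak in either list was 351 bp. Of untreated peaks under 500 bp, 53.0% (51.6 to 54.4) had no counterpart at 1 h, and of 1 h peaks of that width 38.6% (37.2 to 39.9) had none before. At 1000 to under 2000 bp the shares were 5.69% and 3.12%. Of peaks of at least 4000 bp, 5 of 13391 untreated and 1 of 11911 1 h peaks stood alone. The share lost exceeded the share gained at every width, distal or not.

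**Figure D2:**
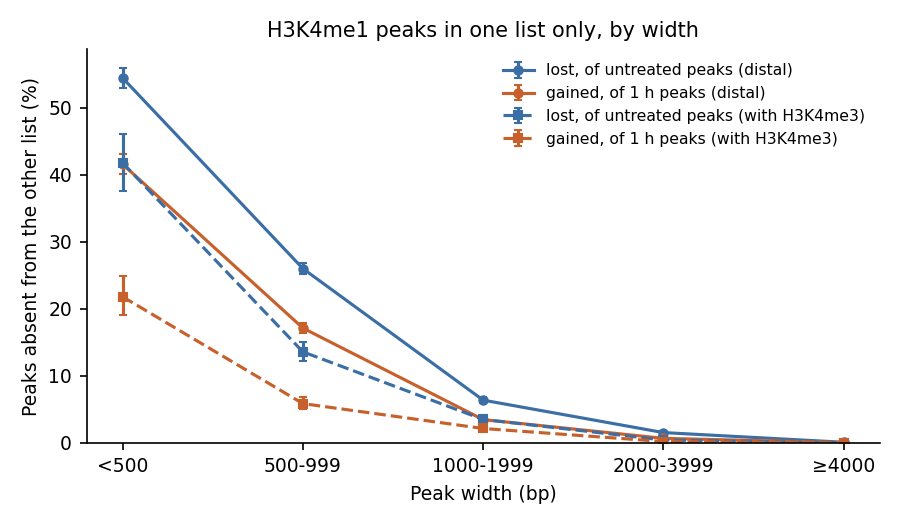
Share of H3K4me1 peaks with no overlapping peak in the other list, in percent, by peak width in bp; blue is lost (of untreated peaks), orange gained (of 1 h peaks), solid distal and dashed with H3K4me3, with 95% Wilson intervals as bars. The shares fall steeply with width, and at under 500 bp distal peaks stand at 54.4% lost and 41.5% gained.

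The median distance from a gained place to the nearest untreated peak was 6790 bp, with 41.3% (39.9 to 42.7) within 5 kb and 11.1% beyond 50 kb. From a lost place to the nearest 1 h peak it was 4920 bp, with 50.5% (49.3 to 51.7) within 5 kb and 5.30% beyond 50 kb. Gained places were thus the more isolated. Within a list, neighbouring peaks stood a median 6939 bp (untreated) or 7210 bp (1 h) apart. At the limit of the rule, 87 of the 53373 pairs shared under 100 bp, the least being 2 bp, while 100 gained and 99 lost places lay under 500 bp from a peak of the other list.

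The widest places show which other marks lay on them. The widest gained distal place, chr11:42197519-42202913 in mm9 (5395 bp), carried none of the other 6 marks at either time, and H3K4me1 covered 76.7% of it at 4 h. The third widest, chrX:143650907-143654041 (3135 bp), was likewise bare before LPS and was 83.2% covered at 4 h. Both were in the unmarked state 27 in untreated cells. The second, chr14:120766148-120769469 (3322 bp), lay wholly under H3K79me2 at both times. The widest gain with H3K4me3, chr11:3103622-3107588 (3967 bp), also lay wholly under H3K79me2. There H3K36me3 covered 82.7% before LPS and none at 1 h, and H3K27ac went from none to 13.3%.

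The 3 widest lost distal places all lay under marks of transcribed genes. They were chr7:38791832-38797235 (5404 bp), chr13:59646036-59650679 (4644 bp) and chr11:106772939-106777427 (4489 bp). Each was wholly covered by H3K36me2 and H3K79me2 before and after LPS, was in state 4 in untreated cells, and had no H3K27ac and no PU.1 summit. At 4 h H3K4me1 covered 23.2%, 19.5% and 44.8% of them, so part of the mark was listed there again. The widest loss with H3K4me3, chr11:3228536-3233031 (4496 bp), was a different kind of place. It held 3 PU.1 summits, its H3K27ac cover went from 78.1% to 47.4% while H3K4me3 went from 49.6% to 55.4%, and H3K4me1 was back over 89.5% of it at 4 h.

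Narrowed peaks went from a median of 1701 to 775 bp, and the edge that moved more carried a median 85.7% of the movement, 729 bp against 120 bp at the other edge. Widened peaks went from 681 to 1396 bp with 84.7% of the movement at 1 edge. The edge that moves more holds over 50% by definition, and the median was 74.1% for steady pairs, so the movement was only somewhat more one-sided. Both edges moved inward in 71.7% of narrowed and outward in 64.7% of widened peaks, so the second edge mostly followed by a small step. Over all pairs the median log2 width ratio was -0.06. Binned by untreated width, 43.9% of pairs under 500 bp widened, and binned by 1 h width, 54.2% of pairs under 500 bp had narrowed. A peak that is narrow in the list used for binning was therefore usually wider in the other. From 1000 bp upwards the median width ratio was below 1 under both binnings, at 0.93 to 0.97 by untreated and 0.96 to 0.98 by 1 h width.

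The distal peaks that narrowed the most also lay under marks of transcribed genes. At chr9:56150752-56159352 the peak went from 8601 to 2096 bp, and at chr4:47379459-47388384 from 8926 to 2863 bp. H3K36me2 and H3K79me2 covered both entirely at both times. H3K36me3 went from 100% to 38.0% at the first and was absent from the second. With H3K4me3, chr4:116359679-116370323 went from 10645 to 4422 bp under complete H3K79me2. The largest distal widening, at chr5:20422221-20428124 (1727 to 5904 bp), was also inside complete H3K79me2 and H3K36me3, so such chromatin held changes of both signs. At chr10:62353876-62359518 (1709 to 5643 bp), with 2 PU.1 summits, the widened peak covered the whole place at 4 h.

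A single Polycomb-marked place gave the largest widening with H3K4me3. At chr13:51729221-51736375 the H3K4me1 peak went from 1919 to 7131 bp. H3K27me3 covered 81.9% of the place before LPS and all of it at 1 h. H3K27ac, absent before LPS and at 1 h, covered 65.1% of it at 4 h, when H3K4me1 covered it whole.

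Split peaks mostly opened 1 gap, and the gap held less H3K27ac and PU.1 than the parts kept on either side. Of the 2947 split peaks, 2709 became 2 pieces, 205 became 3, 30 became 4, 2 became 5 and 1 became 6. The 3222 gaps came to 5.89 Mb with a median of 1642 bp. Neighbouring peaks of either list were never under 1405 bp apart, so shorter gaps could not appear. H3K27ac of untreated cells covered 22.9% of the gaps against 47.9% of the kept parts, and PU.1 summits numbered 1.76 against 3.49 per 10 kb. H3K36me2 covered 55.9% of gaps and 61.2% of kept parts, and H3K79me2 42.3% and 51.1%. H3K4me3 and H3K27me3 had the opposite order, with 20.6% of the gap bases against 13.0% of the kept ones and 4.00% against 1.54%. H3K36me3 was level, at 28.8% and 28.7%.

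Distal gaps were poorer in H3K27ac and PU.1 than gaps with H3K4me3. H3K27ac covered 2.37% of distal gaps and PU.1 summits numbered 0.341 per 10 kb, against 30.8% and 2.31 with H3K4me3. H3K36me2 covered 71.7% of distal gaps and H3K79me2 32.6%. Kept parts of distal peaks were not measured apart, so distal gaps cannot be set against kept parts of their own kind. At 4 h 47.0% (45.3 to 48.7) of all split gaps were wholly covered by H3K4me1 and 8.26% (7.35 to 9.26) not at all. The longest distal gap, 6215 bp at chr19:16312462-16318676, opened in a 26749 bp peak under complete H3K79me2 at chr19:16309925-16337275. A gap of 5950 bp opened at chr1:179062747-179068696 in a peak wholly under H3K36me2, and the longest gap with H3K4me3 was 8274 bp at chr4:45507521-45515794.

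Merging was the mirror in form but not in setting. The 957 gaps that closed came to 1.62 Mb with a median of 1583 bp. H3K27me3 covered 12.7% of them, against 4.00% of the gaps that opened, and H3K79me2 22.8% against 42.3%. Distal gaps kept this order, with H3K27me3 on 15.7% of closed and 5.16% of opened ones. The longest closed distal gap was 3257 bp at chrX:70828770-70832026, the next 2985 bp at chr10:87180197-87183181, and the longest with H3K4me3 3985 bp at chr2:72116946-72120930. None of these 3 places had H3K27me3 at either time, and H3K36me2 covered 67.3%, 100% and 88.5% of them before LPS.

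H3K4me1 lost more bases than it gained under each untreated mark, but the balance differed between marks. Under H3K27me3 of untreated cells the bases gained and lost were nearly equal, at 2.83 and 2.84 Mb, a ratio of 0.995. Outside all 6 marks the ratio was 0.825. It was 0.332 under H3K36me2, 0.320 under H3K4me3, 0.302 under H3K36me3, 0.271 under H3K27ac and 0.240 under H3K79me2, against 0.485 over all bases. H3K79me2 thus stood lowest, followed by H3K27ac, and H3K27me3 stood highest. The marks overlap, so 1 base can count under several. With each mark's 1 h list in place of the untreated one, the ratio was 1.10 for H3K27me3, 0.359 for H3K36me2 and 0.251 for H3K79me2. Relative to the H3K4me1 present, the net change was -14.0% under H3K36me3, -11.6% under H3K79me2, -10.2% under H3K36me2, -8.84% under H3K4me3 and -3.69% under H3K27ac. Chromatin with H3K27ac thus kept more of its H3K4me1 than chromatin with H3K79me2 or H3K36me3 did. Under H3K27me3 the net change was -0.121%, but this came from gains and losses that balanced, not from H3K4me1 staying in place. Of 10.68 Mb of untreated H3K4me1 under H3K27me3, 2.84 Mb was absent at 1 h, while 2.83 Mb was in the 1 h list only. The absent part was larger than under any other mark, the next being H3K36me3 with 8.86 of 44.11 Mb.

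Among whole distal places, gained ones differed from both lost and steady ones in these marks. H3K27me3 of untreated cells was on 31.7% (30.3 to 33.1) of gained and 19.1% (18.1 to 20.0) of lost distal places, with 17.98% (17.5 to 18.4) of steady ones. H3K36me2 was on 19.7% (18.5 to 20.9) of gained and 40.8% (39.6 to 42.0) of lost ones, with 54.7% (54.1 to 55.3) of steady ones. H3K79me2 was on 4.47% (3.89 to 5.13) of gained, 12.9% (12.1 to 13.8) of lost and 10.1% (9.72 to 10.4) of steady places. Over all widths, lost places were thus close to steady ones in H3K27me3. Steady places are wider, and the difference between gained and lost places grew with width. Among gained places H3K27me3 was on 27.7% of those under 500 bp and 48.3% (35.9 to 60.8) of those of 2000 to under 4000 bp. Among lost places it was on 21.8% and 8.70% (5.04 to 14.6). H3K79me2 was on 7.43% of lost places under 500 bp and 44.2% (36.2 to 52.5) of those of 2000 to under 4000 bp, against 12.2% of steady places of that width. When each list was limited to peaks with −log10 q of 5 or more, the H3K27me3 shares were 2.22% and 2.11% and the H3K79me2 shares 8.46% and 9.65%, so both differences were much smaller. That limit keeps 12.4% of untreated H3K27me3 peaks, and across the 53373 pairs −log10 q had a Spearman correlation of 0.134 between the lists where width had 0.900, so whether each deposited q belongs to its interval is not settled and the limit may not select strong peaks.

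**Figure D3:**
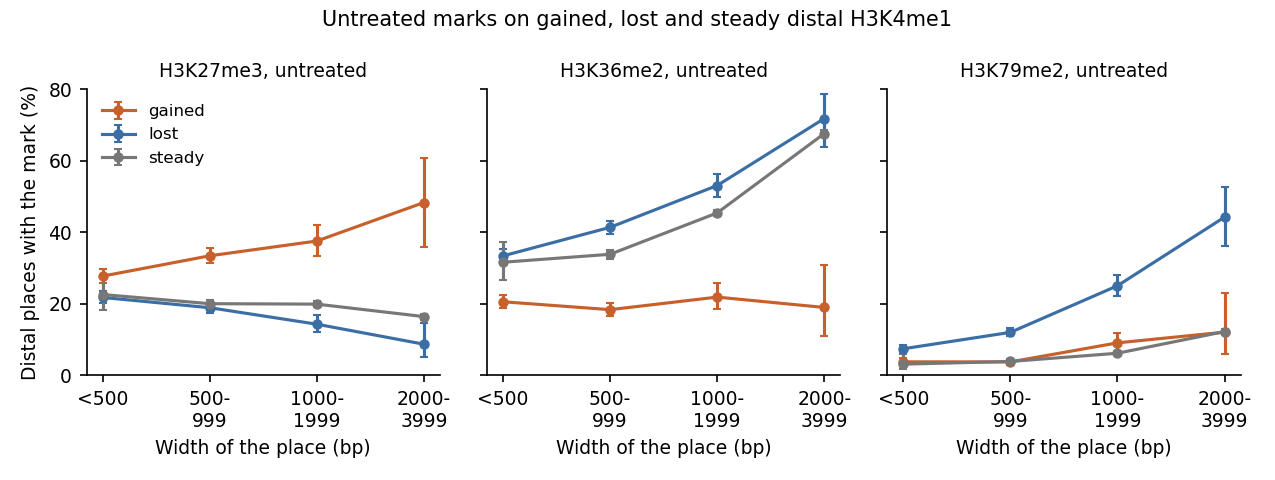
Share of distal H3K4me1 places that met an untreated peak of H3K27me3, H3K36me2 or H3K79me2, in percent, by the width of the place in bp, for gained (orange), lost (blue) and steady (grey) places, with 95% Wilson intervals. At 2000 to under 4000 bp gained places stand at 48.3% for H3K27me3 and lost ones at 44.2% for H3K79me2.

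By the chromatin states of untreated cells, H3K4me1 retreated in 25 of 27 states. State 19, of which H3K27me3 covers 95.7%, gained 2.21 and lost 1.74 Mb, with 1078 gained and 771 lost places. State 27, almost bare of marks, gained 4.44 and lost 3.89 Mb, with 2270 gained and 1779 lost places. Together these 2 states held most of the gained places. They were also the 2 longest states, at 286 Mb for state 19 and 1816 Mb for state 27. State 27 was the main state of 47.6% of gained, 25.4% of lost and 8.45% of steady places. State 19 was that of 22.6%, 11.0% and 3.31%. Of all 69188 places, 10063 were in state 27 and 4322 in state 19.

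States with partial H3K4me1 cover under H3K36me2, H3K36me3 or H3K79me2 had large net losses. State 26, with H3K36me2 over 64.5% and H3K36me3 over 32.2% of its length, lost 4.94 and gained 2.47 Mb. State 1, with H3K36me2 over 99.9%, lost 4.04 and gained 1.78 Mb. State 15, under H3K36me3, lost 2.43 and gained 1.06 Mb. State 4, with H3K36me2 and H3K79me2, had the lowest ratio of gained to lost bases of this kind, at 0.202, and its H3K4me1 cover went from 46.2% to 31.6%. States 11 and 12, under H3K79me2, had ratios of 0.284 and 0.295. State 16, with H3K36me2 over 37.0% and PU.1 peaks over 25.4% of its length, had nearly complete instead of partial cover. There H3K4me1 cover went from 98.1% to 92.3%. Of its 16822 places 714 were lost (4.24%), 1184 narrowed (7.04%) and 14121 steady (83.9%). Among all 69188 places 7006 were lost and 6391 narrowed, so state 16 had low shares of both. States 17 and 3, which H3K27ac and H3K4me1 each cover almost whole, kept nearly all of their H3K4me1. Its cover went from 99.9% to 99.7% in state 17 and from 99.4% to 98.9% in state 3. H3K27ac also covers states 10 and 23 almost whole, but so does H3K4me3, and H3K4me1 covered them in part. There H3K4me1 cover went from 29.4% to 21.2% in state 10 and from 48.6% to 41.3% in state 23.

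The labels list the H3K4me1 libraries with these segmentations, so the states are not independent of the lists compared, and part of the result depended on which segmentation was used. A state of untreated cells that H3K4me1 covers almost whole has little room to gain it. By the 1 h segmentation, gains exceeded losses in 10 states and losses in 17, among them states 19 and 27, whose net change turned to -0.187 and -1.45 Mb. State 16 turned too, from -1.97 to 0.852 Mb. The ratio of gained to lost bases in states 1, 4, 11, 12, 15 and 26 was 0.202 to 0.5003 by the untreated and 0.212 to 0.381 by the 1 h segmentation. In states 19 and 27 it was 1.27 and 1.14 by the first and 0.914 and 0.683 by the second, above those 6 states in both.

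**Figure D4:**
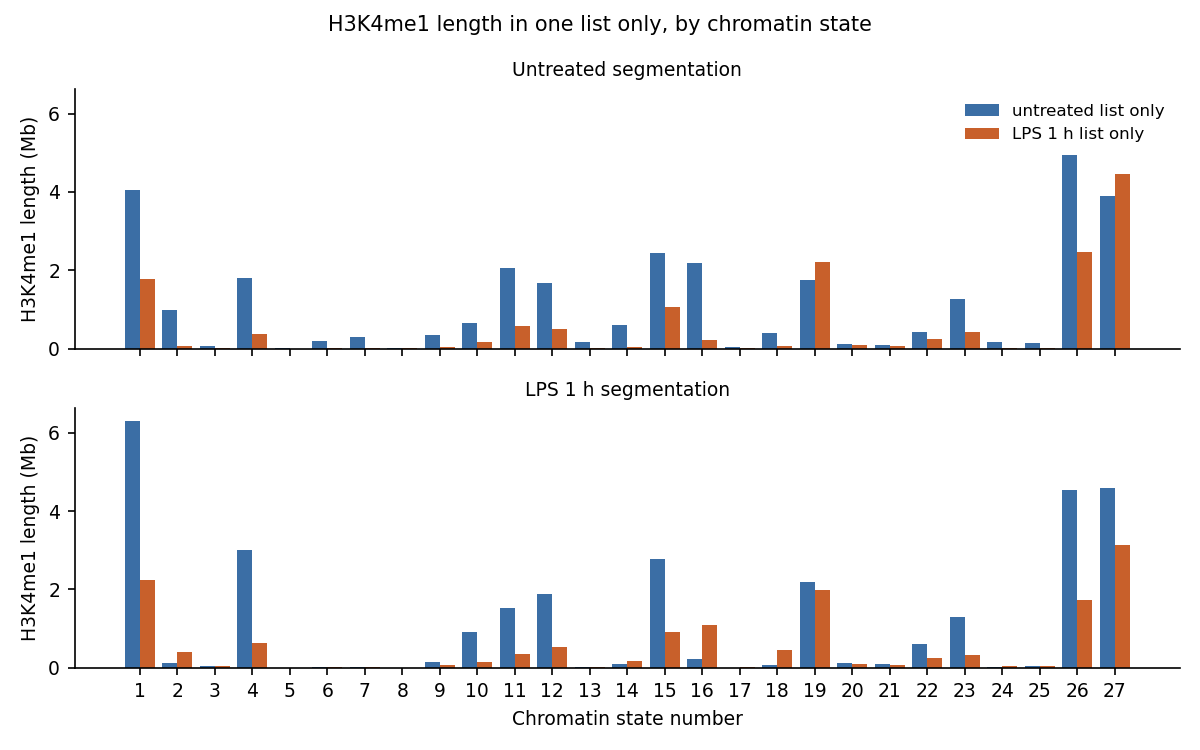
H3K4me1 length, in Mb, in the untreated list only (blue) and the LPS 1 h list only (orange) for each of the 27 chromatin states, by the untreated segmentation above and the 1 h segmentation below. States 1, 4, 11, 12, 15 and 26 lose more than they gain in both panels, while states 19 and 27 turn between them.

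Most gained and lost places stayed in their state. Of the gained places 67.7% (66.3 to 69.0) had the same main state in both segmentations, and of the lost ones 63.9% (62.8 to 65.1). State 27 before and after held 1561 gained and 1490 lost places. The main state is that of the place's own bases. These places were thus in a state almost bare of marks even in the condition whose list had the peak. There the peak list and the segmentation differed, and the state of the surroundings was not measured. The commonest change among gains was from state 27 to 16, at 329 places, and among losses from 16 to 27, at 364.

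H3K27ac followed the H3K4me1 classes in part. Of 4317 gained distal places, H3K27ac appeared in 74 (1.71%, 1.37 to 2.15) and disappeared from 16 (0.371%, 0.228 to 0.601). Of 6312 lost distal places, it appeared in 33 (0.523%, 0.373 to 0.733) and disappeared from 65 (1.03%, 0.809 to 1.31). At steady distal places it appeared in 4.13% and disappeared from 9.93%. New H3K27ac was thus rare among gains, which are narrow, and H3K27ac disappeared more often than it appeared where H3K4me1 was steady. At 1000 to under 2000 bp it appeared in 5.98% (4.20 to 8.46) of gained, 5.21% (4.09 to 6.62) of widened, 4.30% (3.93 to 4.70) of steady, 1.70% (1.20 to 2.40) of narrowed and 1.03% (0.542 to 1.94) of lost places. It disappeared from 0.412%, 1.51%, 9.50%, 5.92% and 1.26% of them. Gained and widened places were the classes in which appearance outnumbered disappearance at this width. H3K27ac can disappear only where it was listed before LPS, so gained places had little room for it. Over all widths, distal or not, untreated H3K27ac covered 1.59% of the bases of gained places and 41.7% of the bases in both lists. Under the same q limit in each list, appearance was found at 4.53% of gained and 6.41% of steady distal places of any width.

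**Figure D5:**
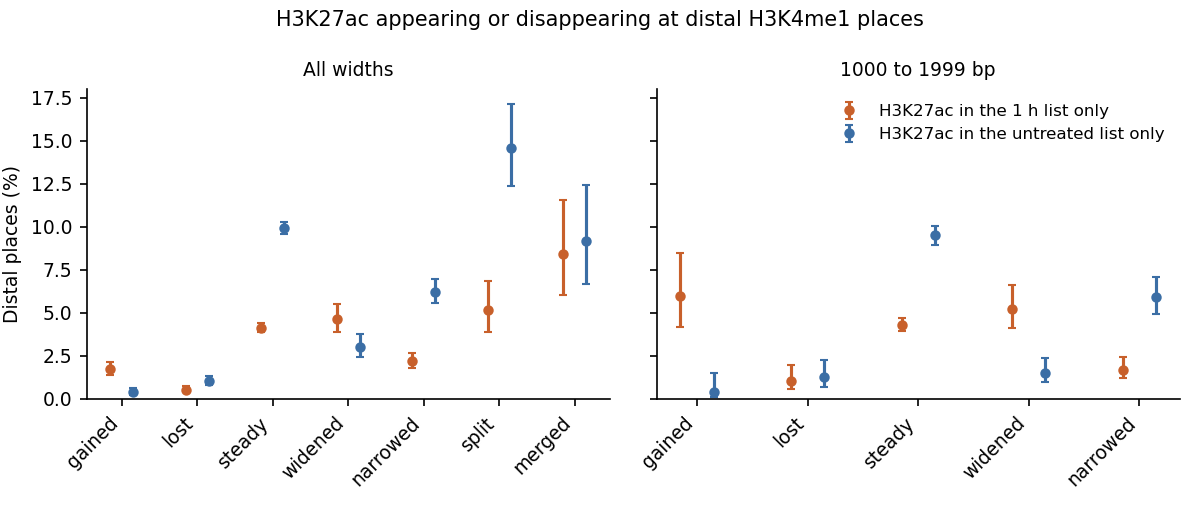
Share of distal H3K4me1 places, in percent, at which H3K27ac was in the 1 h list only (orange) or the untreated list only (blue), by class, for all widths and for places of 1000 to under 2000 bp, with 95% Wilson intervals. On the right, appearance exceeds disappearance in the gained (5.98% and 0.412%) and widened (5.21% and 1.51%) classes.

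Widening was more frequent at narrow places where H3K27ac appeared. Narrowing where it disappeared was less frequent than with H3K27ac in neither list, but more frequent than with it in both. The same order held where H3K27ac appeared. Of 158 distal pairs of 500 to under 1000 bp (untreated width) in which H3K27ac was in the 1 h list only, 34.2% (27.2 to 41.9) widened. The share was 14.0% (9.44 to 20.3) where it was in the untreated list only and 13.8% (13.0 to 14.6) with neither. With H3K27ac in both lists it was 21.1% (13.2 to 32.0) of 71 pairs. At 2000 to under 4000 bp, 1.79% (0.910 to 3.49) widened with new H3K27ac and 1.26% (0.963 to 1.66) with neither. Of pairs with H3K27ac in the untreated list only, 8.73% (7.27 to 10.4) narrowed at 1000 to under 2000 bp, against 17.1% (16.4 to 17.9) with H3K27ac in neither list. With H3K27ac in both lists 3.07% (2.21 to 4.27) narrowed at that width.

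Width changed more in both directions under H3K79me2. Of distal pairs of 1000 to under 2000 bp with H3K79me2 in both lists, 26.9% (24.2 to 29.8) narrowed and 6.50% (5.10 to 8.24) widened. With H3K79me2 in neither, 13.3% (12.7 to 13.9) narrowed and 4.19% (3.84 to 4.58) widened. With H3K27me3 in both lists widening was more frequent, at 20.9% (18.98 to 23.1) of pairs of 500 to under 1000 bp against 12.4% (11.6 to 13.3) with none, and narrowing less frequent, at 11.1% (9.65 to 12.8) against 13.8% (13.0 to 14.7).

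The 74 distal places that gained both marks at 1 h were mostly marked at 4 h. H3K27ac was listed at 63 of them (85.1%, 75.3 to 91.5) and H3K4me1 at 68 (91.9%, 83.4 to 96.2). Over all gained distal places H3K4me1 was listed at 67.6% at 4 h, and at 73.9% of those of 500 to under 1000 bp. The share with H3K27ac at 4 h over all gained distal places is not given here. The median width of the 74 places was 834 bp. PU.1 of untreated cells had a summit in 17 of them (23.0%, 14.9 to 33.7), and untreated H3K27me3 met 15 (20.3%, 12.7 to 30.8). Of all gained distal places 75.6% had no PU.1 summit, and untreated H3K27me3 met 31.7%. Of 28 places with H3K4me3 that gained both marks at 1 h, H3K27ac was listed at 16 and H3K4me1 at 19 at 4 h. H3K4me1 was listed then at 68.2% of all gained places with H3K4me3.

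PU.1 was similarly infrequent at gained and at lost distal places. No PU.1 summit lay in 75.6% of gained and 75.8% of lost places, against 31.2% of steady ones, which are wider. Per 10 kb the summits numbered 3.72 in gained, 3.45 in lost and 4.17 in steady places. Their median fold enrichment, as the authors deposited it, was 5.98, 5.92 and 7.41. Gained and lost places thus differed little in PU.1, on a map that was made before LPS.

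Not all gained places were in the 4 h list, and many lost places were listed there again. Of gained places 67.6% (66.3 to 68.9) were in the 4 h list, and of lost places 58.2% (57.0 to 59.3) were listed again. Requiring a cover of 50% gave 60.6% and 49.1%. Wide places were listed more often in either class: at 2000 to under 4000 bp, 84.5% (74.3 to 91.1) of gained and 75.3% (68.2 to 81.2) of lost ones. Steady places, which are wider, stood at 98.2% (98.0 to 98.3). Under 500 bp the shares were 57.1% of gained, 49.2% of lost and 68.0% (63.0 to 72.6) of steady places. Narrow places present at both earlier times were thus often absent at 4 h too. The 4 h list was also longer than the other 2, with 73217 peaks and 200.4 Mb. By bases, the 4 h list covered 58.5% of the 1 h only length, 50.9% of the untreated only length and 95.4% of the shared length. The comparisons of the 3 lists share lists with each other, so their values are only set side by side. Between untreated and 4 h cells the ratio of gained to lost bases was 1.37 over all bases, 3.28 under H3K27me3 and 0.674 under H3K79me2. Between 1 h and 4 h it was 2.76, 3.63 and 2.60.

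Flavopiridol, which inhibits CDK9 and so keeps RNA polymerase II from elongating, was given without LPS to other cells. Its 1 h list had a peak at 38.7% (37.3 to 40.1) of the places gained with LPS and at 35.7% (34.6 to 36.8) of those lost. Steady places, which are wider, stood at 86.5% (86.2 to 86.8). Under 500 bp the shares were 31.3% of gained, 33.0% of lost and 40.7% (35.8 to 45.9) of steady places. With H3K4me3, at any width, they were 69.1% (64.7 to 73.2) of gained, 79.1% (75.9 to 82.0) of lost and 97.9% (97.7 to 98.1) of steady places. Between untreated and flavopiridol cells the ratio of gained to lost bases was 0.306 over all bases, 1.76 under H3K27me3, 4.42 under H3K4me3 and 0.0510 under H3K36me2. This comparison and the LPS one share the untreated list. With flavopiridol ahead of LPS for 4 h, 31.2% (29.9 to 32.5) of the gained and 25.6% (24.6 to 26.6) of the lost places had a peak. Of steady places 78.1% (77.7 to 78.5) had one.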

How the data were processed

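ChIP-seq peak lists of RAW264.7 cells were used. The submitters' processing notes name Bowtie 1.0.1, MACS2 and the mm9 build. MACS2 settings, control libraries, pooling and read totals were not given in the sources used here. Each peak's fold enrichment is a ratio the authors deposited, as are its −log10 p and −log10 q. Histone peaks are broad, and PU.1 peaks carry summits. The deposited segmentations give a state name per interval.

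Classes, lengths and overlaps were computed from intervals on chromosomes 1 to 19 and X with Python 3.11.15, numpy 2.4.6, pandas 2.3.3 and scipy 1.17.1, and tested on simulated lists. A place's main state covers most of its bases, and a mark is on a place at an overlap of 1 bp. Fold and q were not used for classes. Shares have 95% Wilson intervals. Alternatives were a −log10 q of at least 5, peaks of at least 1 kb, merging within 1 kb, 50% cover, all sequences, equal numbers of the widest peaks, a width ratio of 2, H3K4me3 within 2 kb or untreated H3K4me3 only, and the state at the middle. Merging within 2 kb, the q limit in 1 list only, 1 h mark lists and the 1 h segmentation were added later.

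The places, lists and rules were chosen with earlier results of these data known. Named are the widest 3 distal gains and losses and the widest 1 with H3K4me3, the 2 distal and 1 other split and merged places with the longest gap, and the 2 distal and 1 other pairs with the largest width change. Coordinates are 1-based mm9. No mm9 annotation or genome was used here, so no place is assigned to a gene, no sequence is printed, and the planned gene and cell type lists were not run. The 18-state segmentation, H3K36me2 after flavopiridol and most 4 h lists were not used here.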

Additional observations from a re-analysis of the deposited data

How the results depend on the processing

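Of 85 alternative values over 35 results, 47 stayed within 1.5 times a count, length or ratio or within the interval of a share. Another 36 moved beyond that and 2 changed sign. The 47 include every value from merging within 1 kb, which could change nothing. Losses outnumbered gains, splits merges and narrowing widening under each alternative run on those counts. With −log10 q of 5 or more in both lists there were 13642 gained, 18255 lost, 741 split, 211 merged, 30 complex, 993 widened and 2169 narrowed places. Without any peak of the other list, 2189 gained and 3557 lost peaks passed that limit. Values under it are uncertain in meaning, since it is not settled that each deposited q belongs to its interval. Under it, untreated H3K27me3 was on 2.22% of gained and 2.11% of lost distal places, and H3K79me2 on 8.46% and 9.65%. New H3K27ac was then on 4.53% of gained and 6.41% of steady distal places. With peaks of at least 1 kb, 1841 places were split, 567 merged, 1147 widened and 3118 narrowed, and gained plus lost places came to a net -3.995 Mb. Requiring 50% cover left 11055 untreated peaks as lost, and gave 60.6% of gained and 49.1% of lost places at 4 h. A width ratio of 2 gave 1190 widened and 2626 narrowed places.

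With H3K4me3 within 2 kb counted, 88.5% of gained, 88.3% of lost and 68.7% of narrowed places were distal. With untreated H3K4me3 only, 91.8% of gained and 90.8% of lost places were. By the state at the middle, lost places were in state 27 at 24.0% and in state 26 at 15.6%. By the 1 h segmentation, 35.8% of gained and 29.7% of lost places were in state 27 and 20.8% of gained ones in state 19. The net length then was -0.187 Mb in state 19, -1.45 Mb in state 27 and -4.07 Mb in state 1. The cause of these differences was not tested. Merging peaks within 1 kb changed no value, since no neighbours lie that close. No paired analysis was possible because there is 1 library per condition, and for the same reason none could be left out. Read depth is unknown, so a list that is shorter through weaker detection cannot be told apart from 1 that is shorter through less H3K4me1.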

Other observations

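Chromosome X fell less in total H3K4me1 length from untreated to 1 h than any autosome did. Its 1 h length was 96.6% of the untreated length, where the autosomes lay between 90.5% and 93.0% with a median of 91.7%. From untreated to 4 h the values were 107.8% for X and 103.0% to 106.8% for autosomes. From 1 h to 4 h X had 111.6%, below the autosomes at 112.9% to 115.5%. After flavopiridol alone X was at 49.6% of its untreated length and the autosomes at 70.8% to 81.1%. These pairs share lists, there is 1 library for each, and the cause was not tested.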
